A study of Mus musculus with 4 samples.

Results

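Oxidative phosphorylation is carried out by 5 protein complexes of the inner mitochondrial membrane, and the genes for their subunits were followed here through the cell types of mouse intestine and brain. The genes were taken by name from the 55450 features of the count matrices: symbols beginning with Ndufa, Ndufb, Ndufc, Ndufs or Ndufv, with Uqcr, with Cox4 to Cox8 or with Atp5, the symbols Sdha to Sdhd, and the protein-coding genes of mitochondrial DNA, whose symbols begin with mt-. This rule found 120 genes, of which 13 lie in mitochondrial DNA and 107 in the nucleus. Of the nuclear genes, 86 encode or are annotated as subunits, 9 are assembly factors (Ndufaf1 to Ndufaf8 and Atp5s), and 12 are pseudogenes or pseudogene-like copies. One subunit gene, Cox8c, had 0 UMIs (unique molecular identifiers, each standing for 1 captured RNA molecule) in all 4 libraries, and 9 of the 12 pseudogenes had under 100 UMIs in all.

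Complexes I and II take electrons from NADH and succinate, complex III passes them on through cytochrome c, complex IV hands them to oxygen, and complex V uses the proton gradient so built to make ATP. Most subunits are encoded in the nucleus and imported, while a small set of core subunits of complexes I, III, IV and V is transcribed and translated inside the mitochondrion, and complex II is wholly nuclear. Several small subunits of complexes IV and V have paralogs that are known from muscle, testis or hypoxic tissue, so that the composition of the chain can differ between cell types.

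The study held 4 single-cell libraries made with 10x Genomics 3' v3 chemistry, all from mice labelled wild type (WT): intestine after 1 week of a treatment labelled NPs, untreated intestine, brain after 2 months of NPs, and untreated brain. The labels name BALB/c mice of 5 weeks and ICR mice of 6 months without saying which gave which tissue or library, do not spell out NPs, and do not give the number of animals, and the series text speaks of colon where the labels say intestine. Each group had 1 library, so no difference between groups has a replicate check, no p-value is given, and intervals and floors cover counting error only. Strain, age, tissue region and preparation cannot be told apart from treatment. The class names used below stand for likeness to marker genes only.

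The matrices held 19918 and 20368 barcodes for NPs and untreated intestine and 12226 and 11754 for NPs and untreated brain. The total per library ranged over 63889853 to 127772838 UMIs. Barcodes above 20% mt- UMIs were left out, which touched the libraries very unequally: 46.5% of barcodes in NPs intestine and 16.7% in untreated intestine, against 0.278% in NPs brain and 0.681% in untreated brain. After this limit, a minimum of 200 genes and removal of called doublets 10556 and 16855 intestinal and 11942 and 11333 brain cells remained. The largest compared classes were absorptive cells with 3118 and 5233 cells in NPs and untreated intestine and microglia with 6534 and 5344 cells in NPs and untreated brain, and the smallest were enteroendocrine cells with 52 and 170 and ependymal cells with 51 and 280. At most 104 barcodes were shared by a pair of libraries, at most 0.605% of either. Nearly all absorptive and goblet cells lay in clusters made to at least 90% of 1 library, 99.9% and 99.8% of NPs and untreated absorptive cells and 100% and 99.3% of goblet cells, and summed posterior Hox genes, which mark the distal gut, stood at 150 and 508 CPM (the UMIs of a gene scaled to a common total per class) in NPs and untreated absorptive cells and 203 and 522 CPM in goblet cells. Of these Hox UMIs, Hoxb13 alone gave 489 of 6940 and 14500 of 20805 in NPs and untreated absorptive cells. In goblet cells it gave 1061 of 6530 and 3780 of 6024. Microglia were split by library likewise, for 86.4% and 84.6% of NPs and untreated cells. The classes found fit both tissue labels, with markers of absorptive and goblet epithelium in the intestine and of microglia, astrocytes and choroid plexus in the brain, but no brain cluster was named neuron.

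How well a member can be counted depended on whether its sequence is unique. Copies of mitochondrial DNA sit in the nuclear genome, and the annotation holds some of them as pseudogenes with nearly the same sequence. Of the windows of 90 bases in each mitochondrial subunit, 99.9% in mt-Co3, 99.5% in mt-Co2, 99.5% in mt-Atp6, 98.6% in mt-Nd4l and 97.7% in mt-Nd3 also occur exactly in a transcript of another gene, a pseudogene in each case. These 5 genes held 405 (mt-Nd3) to 59698 (mt-Atp6) UMIs over the 4 libraries. The share was 61.1% in mt-Nd4, 33.4% in mt-Co1, 4.21% in mt-Nd2 and 0.346% in mt-Nd5, and it was 0 in mt-Nd1, mt-Cytb, mt-Nd6 and mt-Atp8. The genes with many UMIs were mt-Cytb with 4697089, mt-Nd1 with 2125473, mt-Nd4 with 1841310, mt-Co1 with 1770227 and mt-Nd2 with 1763718. The copy of mt-Nd3 named Gm28438 held 143138 UMIs, against 405 for mt-Nd3 itself. Levels of the 5 genes above, and in part of mt-Nd4 and mt-Co1, are therefore uncertain in every library. Their order against the other mitochondrial genes is not a measure of transcript amount.

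**Figure D1:**
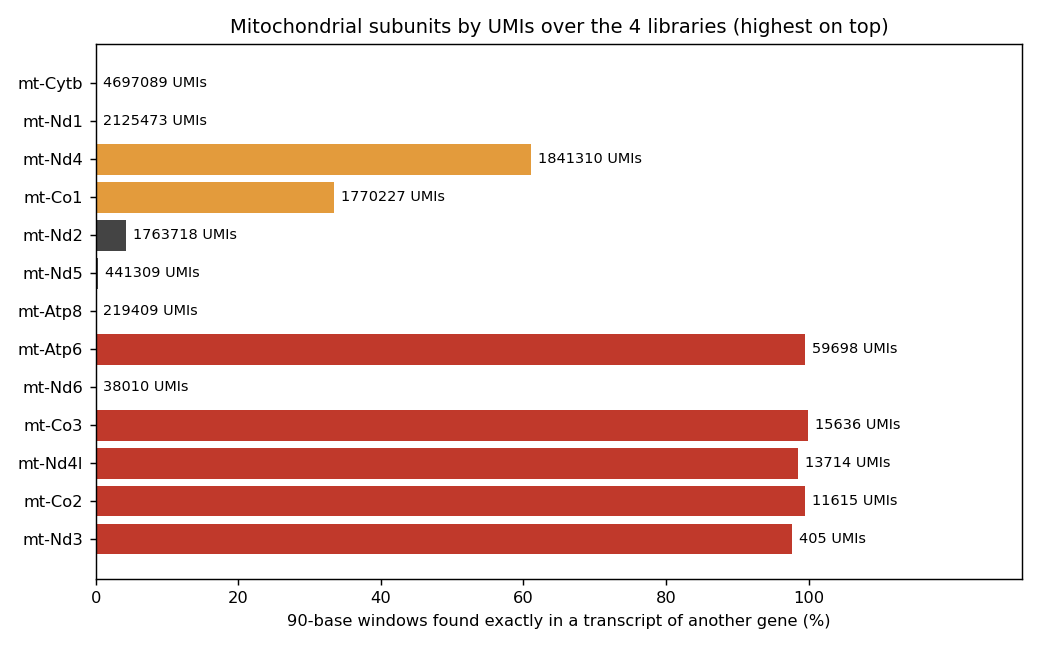
Share of 90-base windows of each mitochondrial subunit gene (vertical axis) that are found exactly in a transcript of another gene (horizontal axis, %), with the gene's UMIs over the 4 libraries printed beside the bar. The 5 red bars, at 97.7% to 99.9%, belong to genes with 405 to 59698 UMIs, orange bars to mt-Nd4 and mt-Co1, and the top gene mt-Cytb shares none.

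Among nuclear subunits, 67 of 86 share no such window in the last 400 bases of their transcripts, the stretch that 3' libraries read. Atp5g2 shares 45.7%, Atp5h 30.1%, Ndufs5 29.8%, Cox7c 29.2%, Atp5l 29.1%, Atp5g1 26.6% and Ndufa12 21.8%. The processed pseudogene Gm15920 held 27009 UMIs beside 17438 for Ndufa12, an accessory subunit of complex I, so its level is uncertain too.

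Nuclear subunits were highest in the absorptive epithelium of the intestine. Their summed level was 80819 and 78321 CPM in NPs and untreated absorptive cells, the cells of the mucosal surface that take up water, salts and short-chain fatty acids. Cycling crypt cells of the NPs library followed with 56761 CPM, goblet cells, which secrete mucus, had 48221 and 55985 CPM in NPs and untreated intestine, while enteroendocrine cells, which secrete hormones, 41965 and 39656 CPM. Immune and stromal classes were lower throughout. T cells had 29177 and 27215 CPM, plasma cells 25099 and 28651 CPM, and the class of macrophages or monocytes 22535 and 28339 CPM in NPs and untreated intestine. Resting B cells of the untreated library were at the bottom with 19141 CPM, whereas cycling B cells of the same library had 31105 CPM.

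This order held gene by gene. Of the nuclear subunits with at least 100 UMIs in their highest class, 76 of 78 in NPs intestine and 72 of 80 in untreated intestine were highest in absorptive cells, and in the untreated library 69 of 80 were lowest in B cells. The median subunit was 2.54 and 2.58 times as high in its highest class as in the median class in NPs and untreated intestine. Widest apart among subunits without a restricted paralog was Cox5a, an accessory subunit of complex IV, with 3238 and 2668 CPM in NPs and untreated absorptive cells and 753 and 591 CPM in T cells. Cox5b, its zinc-binding neighbour in complex IV, had 2789 and 2261 CPM in absorptive cells and 733 and 602 CPM in T cells. Uqcrb and Uqcr10, small subunits of complex III, had 1554 and 1937 CPM and 1870 and 2199 CPM in NPs and untreated absorptive cells, against 360 and 317 CPM and 588 and 498 CPM in T cells. Ndufb9, an accessory subunit of complex I, had 1496 and 1622 CPM in NPs and untreated absorptive cells and 412 and 319 CPM in T cells, and Cox6c of complex IV 2667 and 2664 CPM against 784 and 760 CPM.

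In the brain the highest class was the choroid plexus epithelium, which secretes cerebrospinal fluid. It had 39766 CPM in 25 NPs cells and 37051 CPM in 132 untreated cells, and 55 of 77 nuclear subunits were highest there in the untreated library. Cycling neuroblasts had 21659 and 22657 CPM in NPs and untreated brain, ependymal cells 19330 and 18521 CPM, astrocytes 16154 and 17154 CPM, T cells 16196 and 16277 CPM and endothelial cells 14768 and 16766 CPM. Microglia, the resident macrophages of the brain, stood well below these with 8121 and 8899 CPM, and neutrophils, which live largely on glycolysis, were lowest with 6286 and 7215 CPM. Neutrophils were lowest for 50 of 72 subunits in NPs brain and 49 of 77 in untreated brain, and microglia for 19 and 21. Choroid plexus at the top and microglia and neutrophils at the bottom kept their places in both libraries. Ndufa1, an accessory subunit of complex I encoded on the X chromosome, and Ndufa11 were among the genes most raised in choroid plexus. Ndufa1 had 604 and 641 CPM in NPs and untreated choroid plexus and 59.8 and 71.3 CPM in astrocytes, and Ndufa11 had 797 and 688 CPM in choroid plexus and 181 and 191 CPM in astrocytes.

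**Figure D2:**
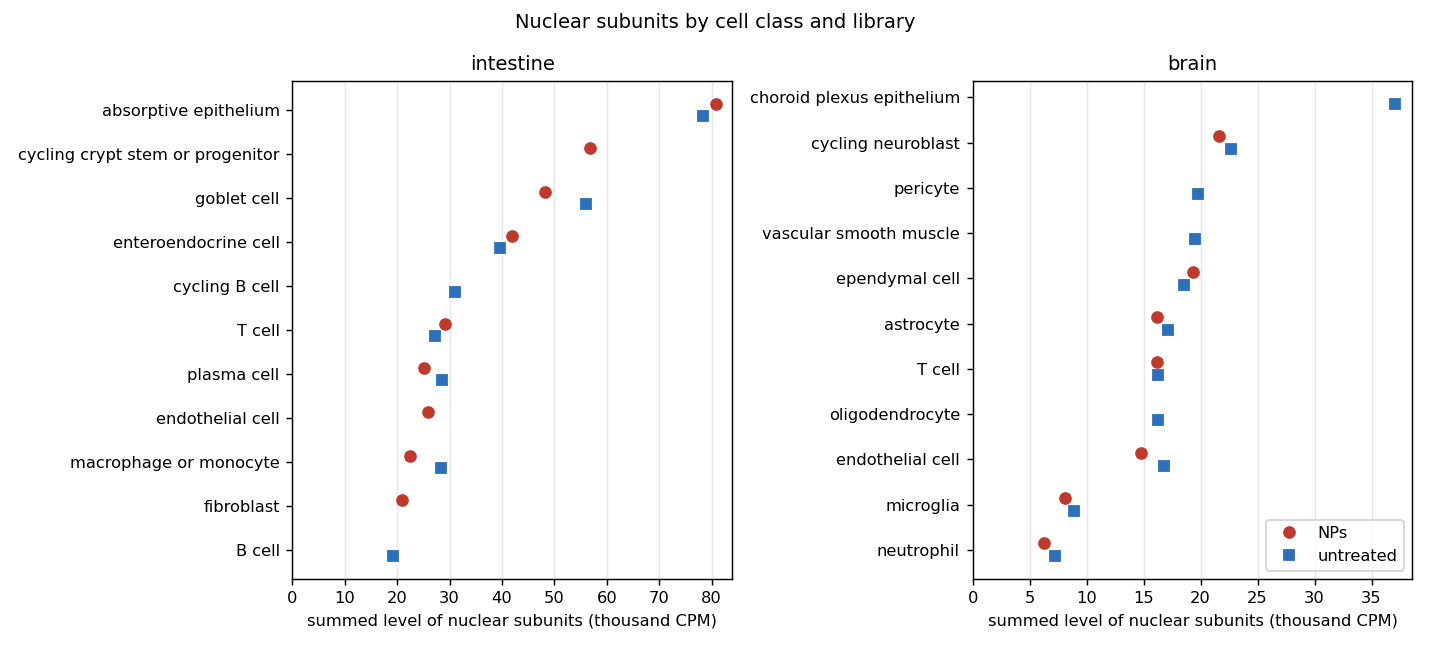
Summed level of the 86 nuclear subunit genes (horizontal axis, in units of 1000 CPM) in each named class of at least 50 cells (vertical axis), with red circles for NPs and blue squares for untreated libraries. Absorptive cells lie at 80819 and 78321 CPM in NPs and untreated intestine, untreated choroid plexus at 37051 CPM, and microglia at 8121 and 8899 CPM above neutrophils at 6286 and 7215 CPM.

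The makeup by complex varied much less than the summed level. Complex I made up 24.5% to 36.9% of nuclear subunit UMIs over the classes of all 4 libraries, complex II 1.33% to 3.40%, complex III 8.74% to 14.1%, complex IV 26.1% to 35.1% and complex V 22.0% to 29.3%. The median share of complex I was 27.1% and 28.0% in NPs and untreated intestine, against 34.5% and 33.0% in NPs and untreated brain, and that of complex III was 12.6% and 11.9% in the intestine and 10.2% and 10.2% in the brain. Complex II, which also works in the citric acid cycle, kept the smallest share in every class.

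Set against the nuclear subunits, the mitochondrial subunits ordered the cell types differently. Per UMI of a nuclear subunit there were 0.574 and 0.341 mt- subunit UMIs in NPs and untreated absorptive cells, 0.529 and 0.382 in goblet cells, then 1.03 and 0.459 in enteroendocrine cells, 0.683 and 0.521 in T cells, 0.694 and 0.430 in macrophages or monocytes, and 0.691 and 0.526 in plasma cells. Absorptive and goblet cells, rich in nuclear subunits, had the lowest of these pooled ratios, and B cells of the untreated library, poorest in nuclear subunits, had 0.796. In NPs intestine this order did not hold among cells of 2000 to 10000 UMIs, with 1.74 in goblet and 1.09 in absorptive cells against 0.771 in T cells, nor as a median over cells, with 0.568 in goblet and 0.630 in absorptive cells against 0.315 in T cells. In untreated intestine it did not hold in that range either. Absorptive cells had 0.525 and goblet cells 0.487 there, against 0.519 in T cells and 0.446 in macrophages or monocytes. As a median over untreated cells the order held, with 0.360 in absorptive and 0.383 in goblet cells against 0.400 in plasma cells. In the brain the ratio was 1.06 and 1.53 in NPs and untreated ependymal cells, 1.11 and 1.36 in astrocytes, 1.02 and 0.990 in microglia, 0.672 and 0.681 in endothelial cells, 0.572 and 0.613 in cycling neuroblasts, 0.478 and 0.532 in T cells, and 0.284 and 0.219 in neutrophils. Vascular smooth muscle of the untreated library had 1.5. Astrocytes and T cells of the brain thus had nearly the same nuclear level and ratios that differed by more than 2-fold in each library. In macrophages of the brain (microglia) the ratio was about 1 in both libraries, while neutrophils were lowest in both measures.

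**Figure D3:**
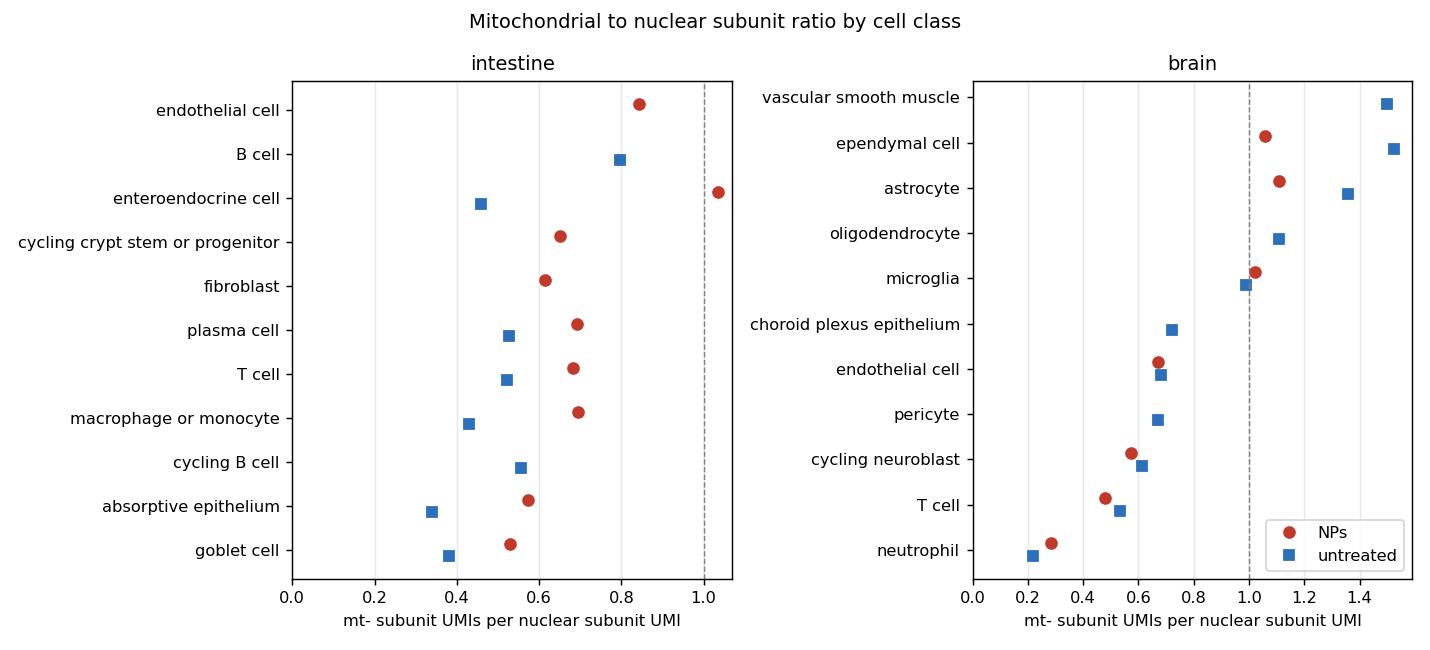
UMIs of the 13 mitochondrial subunits per UMI of the 86 nuclear subunits (horizontal axis) by class of at least 50 cells (vertical axis), red circles for NPs and blue squares for untreated libraries, with a dashed line at equal numbers. In the intestine each of the 6 classes with both libraries has the NPs circle to the right of the untreated square, from 0.529 to 1.03 against 0.341 to 0.526.

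All 6 intestinal classes held in both libraries had the higher ratio in NPs cells, under a limit of 20% mt- UMIs that removed 46.5% of NPs and 16.7% of untreated barcodes. With a limit of 10%, 4 of 5 classes were higher in NPs cells, and T cells had 0.430 and 0.444 in NPs and untreated intestine. With no limit, 4 of 5 were higher, and absorptive cells had 0.711 and 0.774. In cells of 2000 to 10000 UMIs 5 of 5 were higher. As a median over cells 4 of 6 were higher, T cells had 0.315 and 0.433, and macrophages or monocytes 0.325 and 0.427, so that the order of the libraries in these classes differed between the pooled ratio and the typical cell. The part of the mt- UMI content of whole libraries in the ratio was not tested. In the brain, where at most 0.681% of barcodes lay above the limit, 2 of 7 classes were higher in NPs.

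Within the mitochondrial subunits mt-Cytb, the only one in complex III, took 31.1% to 43.1% of the UMIs in every class of all 4 libraries, and mt-Nd1, mt-Nd2 and mt-Nd4 of complex I most of the rest. The share of mt-Co1, the catalytic subunit of complex IV, was 10.8% to 17.4% in classes of NPs intestine and 9.12% to 13.4% in untreated intestine, and 5.01% to 14.6% in NPs brain and 2.78% to 12.7% in untreated brain, with medians of 5.63% and 4.60%. mt-Atp8, a small subunit of complex V read from the same transcript as mt-Atp6, took 1.83% to 2.27% over the 9 classes of NPs intestine and 0.882% to 1.12% over the 8 of untreated intestine. These ranges do not overlap, while those of every other mitochondrial subunit do overlap between NPs and untreated intestine. How often the ranges of genes in general lie apart was not counted. The classes of a library share its preparation and are not replicates. In NPs and untreated brain the share of mt-Atp8 was 0.715% to 1.26% and 0.676% to 1.48%. mt-Nd6, the only one encoded on the other strand of mitochondrial DNA, stayed at 0.888% or less, and mt-Co2, mt-Co3, mt-Nd3, mt-Nd4l and mt-Atp6, whose sequences are shared with pseudogenes, each at 0.775% or less.

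Levels of the restricted paralogs differed widely between cell types. Ndufa4l2, a paralog of the complex IV subunit Ndufa4 known for its induction in low oxygen, had 1868 and 1871 CPM in NPs and untreated pericytes, the mural cells of brain capillaries (41 and 103 cells). It was found in 90.2% and 94.2% of these cells, against 0.122% and 0.206% of microglia, although a median pericyte had 2467 and 2603 UMIs and a median microglial cell 4705 and 4938. Thinned to 1000 UMIs, 86.1% and 80.6% of NPs and untreated pericytes still showed it. Vascular smooth muscle of untreated brain had 156 CPM, brain endothelial cells 86.5 and 72.2 CPM in NPs and untreated brain, and endothelial cells of NPs intestine 79.0 CPM. Ndufa4 itself was at its lowest in untreated pericytes, with 45.5 CPM, so that Ndufa4l2 supplied 96.3% and 97.6% of the UMIs of the pair in NPs and untreated pericytes.

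Cox4i2, the paralog of Cox4i1 with a known role in oxygen sensing, was high in the same cells. It had 897 and 1017 CPM in NPs and untreated pericytes, found in 78.0% and 81.6% of them (58.3% and 57.1% thinned), against 3.50% and 3.32% of astrocytes, and took 60.7% and 60.4% of the UMIs of the pair. Smooth muscle of untreated brain had 93.4 CPM, endothelial cells 44.9 and 37.9 CPM in NPs and untreated brain, and astrocytes 8.93 and 7.34 CPM. Pericytes thus carried both hypoxia-linked paralogs at a level near or above that of the common form.

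Among untreated brain classes of at least 50 cells, choroid plexus epithelium was highest in Cox6b2, known from testis, and Cox8b, known from muscle and brown fat. It held 678 of the 784 Cox8b UMIs of that library but only 1154 of the 2651 Cox6b2 UMIs. Cox6b2 had 288 and 244 CPM in NPs and untreated choroid plexus, 31.5% and 29.9% of the UMIs it shares with Cox6b1, and 36.2 and 57.8 CPM in ependymal cells. Cox8b had 93.5 and 143 CPM there and at most 3.66 CPM in any other untreated brain class of 50 cells or more, but Cox8a still supplied most of the pair with 2355 and 2177 CPM. Thinned to 1000 UMIs, 15.3% and 9.92% of untreated choroid cells showed Cox6b2 and Cox8b, against 93.2% and 55.3% unthinned, and the median choroid cell had 38603 UMIs. Unthinned, Cox6b2 was found in 4.77% of untreated microglia and Cox8b in 1.23% of untreated astrocytes. Atp5g1, 1 of 3 genes for the same c-ring subunit of complex V, had 1958 and 1529 CPM in NPs and untreated choroid plexus, 76.7% and 74.8% of the 3 genes, against 204 and 164 CPM in astrocytes, where it made up 50.0% and 45.1%. These shares are uncertain, since Atp5g1 and Atp5g2 share 26.6% and 45.7% of their windows with pseudogenes. The pseudogene that shares windows with Atp5g1, Gm10039, held 57255 UMIs over the 4 libraries.

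Cox6a2, the muscle form of Cox6a1, was found in microglia and in scattered cells of the untreated intestine, among them 33 absorptive cells with 41 UMIs and 83 unnamed cells with 97 UMIs, of which 4 and 10 cells also had Siglech. Microglia had 23.1 and 20.5 CPM in NPs and untreated brain, with a UMI in 9.06% and 8.18% of cells (1.87% and 1.57% thinned), against 0.345% and 0.264% of astrocytes of like depth, with median UMIs of 4452 and 4888. It made up 20.1% and 16.9% of the pair in microglia. In the macrophage or monocyte class of the intestine it had 9.47 CPM in NPs cells and 345 CPM in untreated cells. All 197 untreated UMIs came from 18 cells, each of which also had a UMI of Siglech, a marker of plasmacytoid dendritic cells that 21 of the 128 cells carried, and 13 of the 315 NPs cells. Cox7b2, known from testis, was seen in astrocytes at 7.84 and 12.9 CPM in NPs and untreated brain, in 2.94% and 5.33% of cells (0.711% and 0.930% thinned), against 0.122% and 0.225% of microglia. It had 0 UMIs in every intestinal class.

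Cox7a1, the heart and muscle form, had 251 and 531 CPM in NPs and untreated absorptive cells, 18.2 and 87.3 CPM in goblet cells, 63.4 and 127 CPM in enteroendocrine cells, 16.1 and 86.3 CPM in plasma cells, and 20.1 and 17.0 CPM in T cells. It took 9.0% and 16.8% of the family in NPs and untreated absorptive cells. In the brain it had 35.1 and 57.5 CPM in NPs and untreated choroid plexus and 0.482 and 1.28 CPM in microglia. A UMI was found in 75.5% and 63.2% of NPs and untreated absorptive cells, but thinned to 1000 UMIs in 19.9% and 36.7%, and the median cell had 12111 and 2381 UMIs. Cox7a2l, a relative of Cox7a2 that joins complexes III and IV into supercomplexes, was the main member in immune cells of the brain, with 69.1% and 65.4% of the family in NPs and untreated microglia and 67.6% and 65.4% in T cells. It took 15.8% and 8.64% in NPs and untreated absorptive cells and 25.4% and 23.5% in astrocytes.

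**Figure D4:**
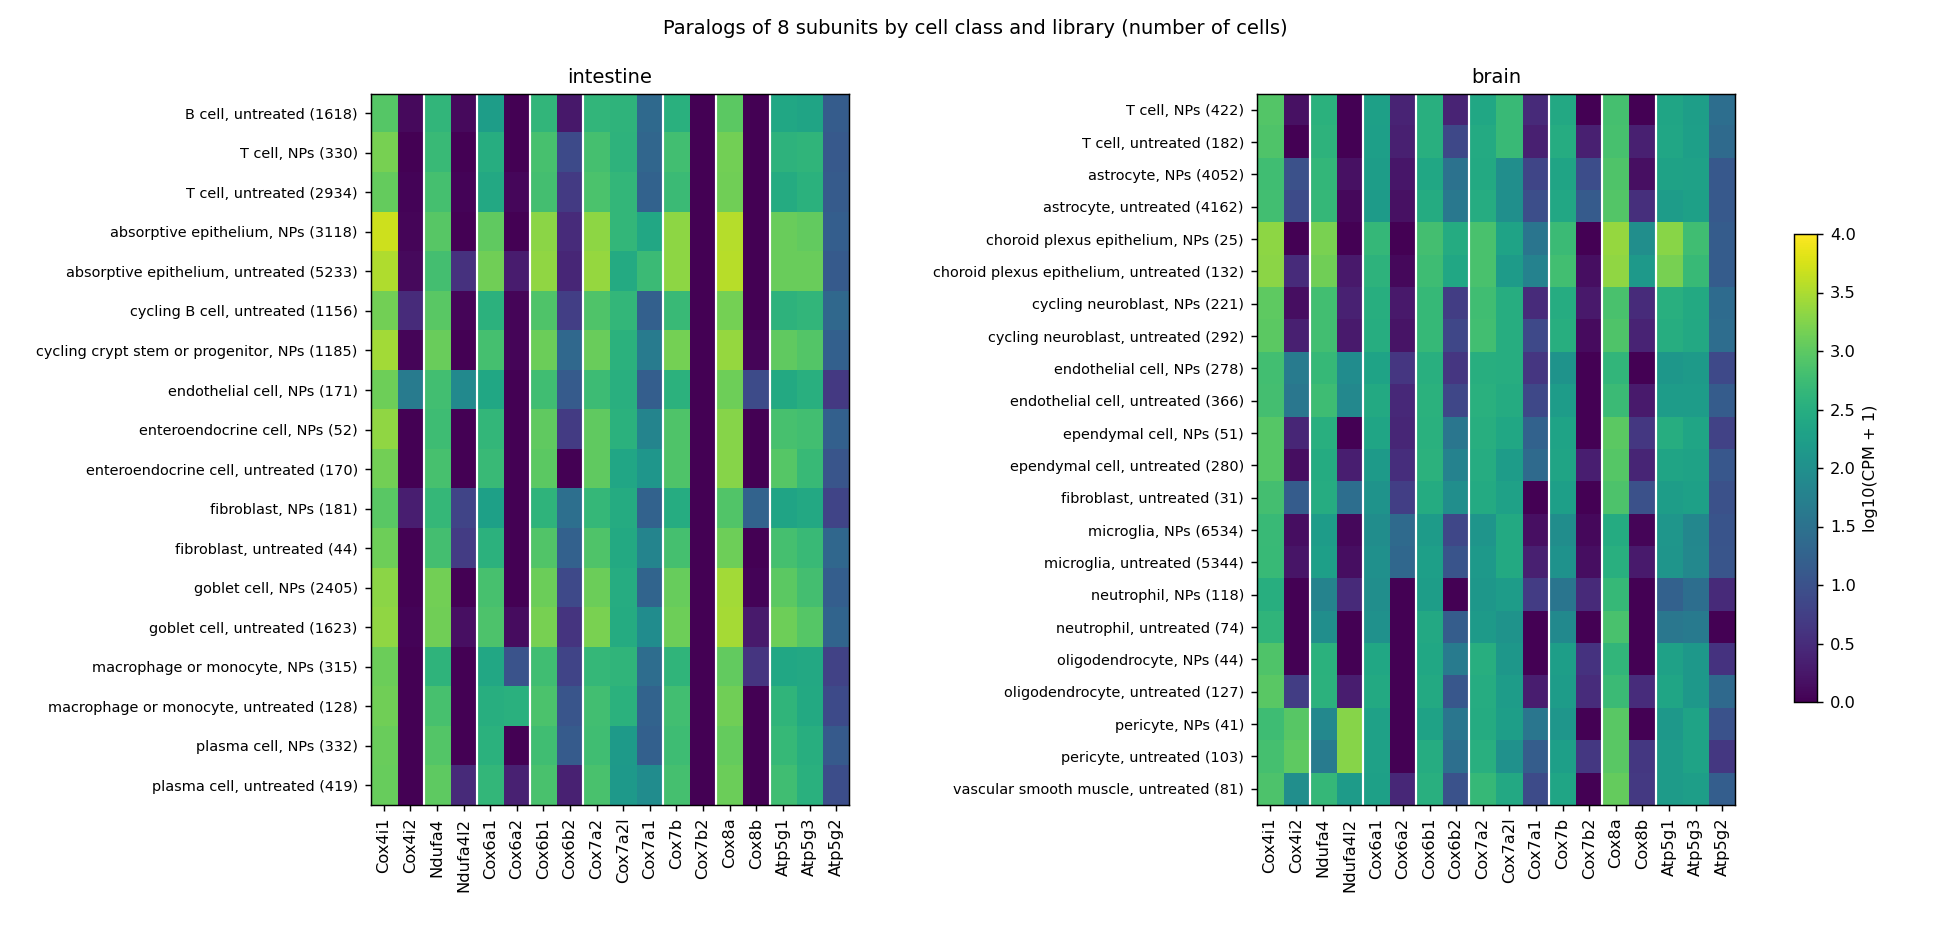
Level of 18 paralogs of 8 subunits (columns, with white lines between families) in each named class and library of at least 25 cells (rows, number of cells in brackets, NPs above untreated), as log10(CPM + 1) in colour. The yellow and green cells of Ndufa4l2 and Cox4i2 lie in the pericyte rows, at 1868 and 1871 CPM for Ndufa4l2, while Cox7b2 is dark in every intestinal row.

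The promoters of 2 restricted genes and of their common partners are shown because each pair holds a form known from muscle beside a common form. The 250 bases before the annotated start were read from RefSeq on GRCm38.p6, 5′ to 3′: Cox7a1 at chr7:30183921-30184170 on the plus strand, Cox7a2 at chr9:79759854-79760103 on the minus strand, Cox8b at chr7:140900447-140900696 on the minus strand, Cox8a at chr19:7217617-7217866 on the minus strand and Cox6a1 at chr5:115348959-115349208 on the minus strand, the last as a common subunit with a known kind of motif. Capitals mark matches to the 10-base motif of the factor NRF1, a regulator of nuclear genes for mitochondrial proteins.
Cox7a1: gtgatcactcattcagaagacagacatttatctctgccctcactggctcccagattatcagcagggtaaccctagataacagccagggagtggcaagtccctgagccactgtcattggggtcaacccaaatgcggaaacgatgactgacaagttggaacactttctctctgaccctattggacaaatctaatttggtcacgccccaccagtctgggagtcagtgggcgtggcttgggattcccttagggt
Cox7a2: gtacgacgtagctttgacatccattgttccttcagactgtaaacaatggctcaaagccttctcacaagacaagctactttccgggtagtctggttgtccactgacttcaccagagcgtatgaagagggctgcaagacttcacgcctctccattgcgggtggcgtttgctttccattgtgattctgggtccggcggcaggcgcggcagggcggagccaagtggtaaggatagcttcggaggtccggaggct
Cox8b: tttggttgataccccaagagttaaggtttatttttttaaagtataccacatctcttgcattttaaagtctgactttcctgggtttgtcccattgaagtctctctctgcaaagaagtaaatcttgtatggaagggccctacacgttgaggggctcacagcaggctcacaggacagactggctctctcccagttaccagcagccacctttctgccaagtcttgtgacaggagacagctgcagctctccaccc
Cox8a: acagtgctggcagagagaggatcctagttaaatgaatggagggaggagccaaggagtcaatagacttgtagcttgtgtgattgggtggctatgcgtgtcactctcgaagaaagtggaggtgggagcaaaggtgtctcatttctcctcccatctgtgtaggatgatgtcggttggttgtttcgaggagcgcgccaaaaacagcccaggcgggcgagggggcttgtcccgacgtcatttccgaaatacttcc
Cox6a1: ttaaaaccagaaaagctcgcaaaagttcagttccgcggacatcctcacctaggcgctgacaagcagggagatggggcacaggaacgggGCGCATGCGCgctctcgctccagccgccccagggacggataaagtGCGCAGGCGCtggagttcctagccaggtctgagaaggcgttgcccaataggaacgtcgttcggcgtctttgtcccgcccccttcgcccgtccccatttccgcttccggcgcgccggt
The window held 4 CpG in restricted Cox7a1 and 14 in common Cox7a2, 1 in restricted Cox8b and 11 in common Cox8a, and 26 in Cox6a1. Cox6a1, which was shown because of its motif, held 2 matches to the NRF1 motif. Restricted Cox7a1 and Cox8b and common Cox7a2 and Cox8a alike held 0. Searched on both strands, the motif lay in 13 of 67 nuclear subunits that had an entry (19.4%), among them Sdha, Sdhd, Ndufa5, Ndufs6, Atp5c1 and Atp5g2, against 4.23% of 27025 genes. CCGGAAGT, bound by factors of the ETS family, lay in 3 of 67 (4.48%), namely Atp5h, Uqcr11 and Uqcrh, against 3.23% of all genes. A match is a description of letters, and no binding was measured.

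What differed between NPs and untreated cells was asked in the 13 classes with at least 50 cells in both libraries. A gene was tested if its higher library held at least 100 UMIs and 50 CPM, and called at 1.5-fold. In absorptive cells 6 nuclear subunits were called higher and 1 lower of 77 tested, beside 27.6% of all genes called higher and 16.6% lower. In goblet cells 0 were called higher and 2 lower of 75, beside 18.3% and 11.8% of all genes. In T cells of the intestine 5 were called higher and 0 lower of 69 (all genes 14.3% and 8.64%), in enteroendocrine cells 4 and 1 of 66 (21.2% and 14.8%), in plasma cells 2 and 5 of 73 (18.8% and 14.5%), and in macrophages or monocytes 0 and 13 of 63 (31.8% and 17.1%). The shares of nuclear subunits called lay below those of all genes in each class and direction, except for the lower calls in macrophages or monocytes, which lay near the background. The median log2 ratio of all genes tested was 0.18 in absorptive cells and 0.24 in macrophages or monocytes, and of nuclear subunits 0.05 and -0.27.

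The genes called higher included core subunits of complexes I and III. In absorptive cells Uqcrc1, a core subunit of complex III, had 607 and 349 CPM in NPs and untreated cells (log2 ratio 0.80), and Ndufa10, an accessory subunit of complex I, 438 and 264 CPM (0.73). Cox7a2l, Ndufv1, which binds NADH, and Cox4i1 were called higher as well, with log2 ratios of 0.69, 0.66 and 0.61. Uqcrc1 was also called higher in T cells (189 and 105 CPM), enteroendocrine cells (313 and 175 CPM) and plasma cells (174 and 101 CPM), and its level was higher in NPs cells in all 6 classes, though not by 1.5-fold in goblet cells and macrophages or monocytes. Ndufv1 was called in T cells (111 and 61.2 CPM) and plasma cells (110 and 69.1 CPM). In enteroendocrine cells Atp5d, the delta subunit of complex V, had 980 and 529 CPM in NPs and untreated cells, and Atp5a1, its alpha subunit, 774 and 495 CPM. Some of these calls changed direction with the way cells were summed: as a mean over cells, Uqcrc1 and Atp5a1 in enteroendocrine cells had log2 ratios of -0.12 and -0.30, and with doublets kept Uqcrc1 in plasma cells had -0.11.

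Cox7a1 gave the lowest ratio in 3 classes, with log2 ratios of -1.08 in absorptive, -2.26 in goblet and -2.42 in plasma cells. Each cluster of absorptive cells came almost wholly from 1 library, so the groups could not be compared within a cluster. Cox7a1 had 248 and 260 CPM in the NPs clusters and 422 and 629 CPM in the untreated ones. Posterior Hox genes stood at 150 and 508 CPM in the same NPs and untreated cells. Of their UMIs, Hoxb13 gave 489 of 6940 in NPs and 14500 of 20805 in untreated cells. In plasma cells posterior Hox genes stood at 65.2 and 113 CPM in NPs and untreated cells. Hoxb13 gave 10 of 89 of these UMIs in NPs and 95 of 170 in untreated plasma cells. The plasma cell cluster also had 3 goblet cell markers raised. Whether gut region takes part in the Cox7a1 difference was not tested, nor was the source of the Cox7a1 UMIs in plasma cells. Ndufc2, a complex I subunit, was the other call in goblet cells, with 324 and 512 CPM in NPs and untreated cells. In plasma cells Ndufb3 (103 and 169 CPM) and Ndufb1-ps (213 and 343 CPM) were called lower, and in enteroendocrine cells Ndufa1 (303 and 502 CPM).

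In the macrophage or monocyte class the largest difference was that of Cox6a2, with 9.47 and 345 CPM in NPs and untreated cells and a log2 ratio of -5.19, with all 197 untreated UMIs in cells that had Siglech. Summed markers of plasmacytoid dendritic cells stood at 273 and 2106 CPM in NPs and untreated cells of the class. Next came Ndufb1-ps with 291 and 504 CPM and Atp5g1 with 242 and 418 CPM, a gene that shares sequence with a pseudogene. The class differed in makeup, with C1qa, C1qb and C1qc, markers of resident macrophages, at 12612 and 1237 CPM, with at least 1 UMI in 271 of 315 NPs cells and 33 of 128 untreated cells. Among cells with a C1q UMI, 5 of the 18 nuclear subunits that could be tested were called lower and 0 higher, beside 7.6% and 44.6% of all genes, and the summed level of nuclear subunits was 22307 and 31957 CPM in NPs and untreated cells. These cells held 1350708 UMIs in NPs and 138936 in untreated intestine. To be tested, a gene lower in NPs cells thus needed a higher CPM than a gene higher in NPs cells. The counts of lower and higher calls are therefore not on the same footing.

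These counts changed with the depth of the cells taken. The median absorptive cell had 12111 UMIs in NPs and 2381 in untreated intestine, and the median goblet cell 12369 and 1869. Among cells of 2000 to 10000 UMIs, 0 of 75 nuclear subunits were called higher and 60 lower in goblet cells (all genes 43.5% and 24.9%), at 32588 and 57688 CPM in NPs and untreated cells. In plasma cells of that range 0 were called higher and 22 lower of 43 (11.2% and 45%), a share of lower calls near the background. In absorptive cells 3 were called higher and 1 lower of 77 (27.3% and 18%), at 65370 and 64764 CPM in NPs and untreated cells. In T cells 1 was called higher and 0 lower of 67 (11.5% and 9.31%), and in macrophages or monocytes 0 and 7 of 39 (34% and 14.9%). Summed over the 6 intestinal classes, 17 calls were higher and 22 lower in all cells, and 4 higher and 90 lower over the 5 classes left in that range. After the median log2 ratio of a class was shifted to 0, 16 were higher and 39 lower, and as a mean over cells 13 and 95. The lower calls of goblet and plasma cells thus depend on which cells are taken, and the cause was not tested.

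Mitochondrial subunits were higher in the intestine and not lower in any class. Called higher were 11 of 11 tested in absorptive cells, 7 of 7 in enteroendocrine cells, 4 of 9 in goblet cells, 4 of 8 in macrophages or monocytes, 3 of 7 in T cells and 2 of 8 in plasma cells, with the shares of all genes as above. Among the calls were mt-Nd4l and mt-Co3, each tested and called in 1 class, and mt-Atp6, called in 2 of 4 classes tested. Levels of these genes are uncertain, because nearly all their windows are shared with pseudogenes. The 31 calls were 12 at a limit of 10% mt- UMIs, over 5 classes. mt-Atp8 led in each class, with 946 and 287 CPM in NPs and untreated absorptive cells (log2 ratio 1.72), 794 and 195 CPM in enteroendocrine cells (2.02), 488 and 190 CPM in goblet cells (1.36), 453 and 154 CPM in T cells (1.56), 344 and 137 CPM in macrophages or monocytes (1.33) and 341 and 162 CPM in plasma cells (1.07). Over the 6 classes mt-Atp8 was at 2.10 to 4.07 of the untreated level. mt-Atp6, read from the same transcript, was at 1.03 to 1.59 in the 4 classes where it was tested, though its level is uncertain. Like mt-Atp8, mt-Nd5 was called in all 6 classes, at 1552 and 739 CPM in absorptive cells, and mt-Co1 in 5, at 8053 and 3528 CPM in absorptive cells. The most abundant, mt-Cytb, had 15754 and 9833 CPM in absorptive cells and 8985 and 8903 CPM in goblet cells, so that it was called in the one and not in the other. With no limit on mt- UMIs the log2 ratios of mt-Cytb, mt-Nd1, mt-Nd2, mt-Co3 and mt-Atp6 in absorptive cells fell below 0. mt-Co1, mt-Nd5 and mt-Atp8 had log2 ratios of 0.45, 0.32 and 0.84 there. As a mean over cells, mt-Co1 had log2 ratios of -0.014 in enteroendocrine cells and -0.35 in macrophages or monocytes.

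**Figure D5:**
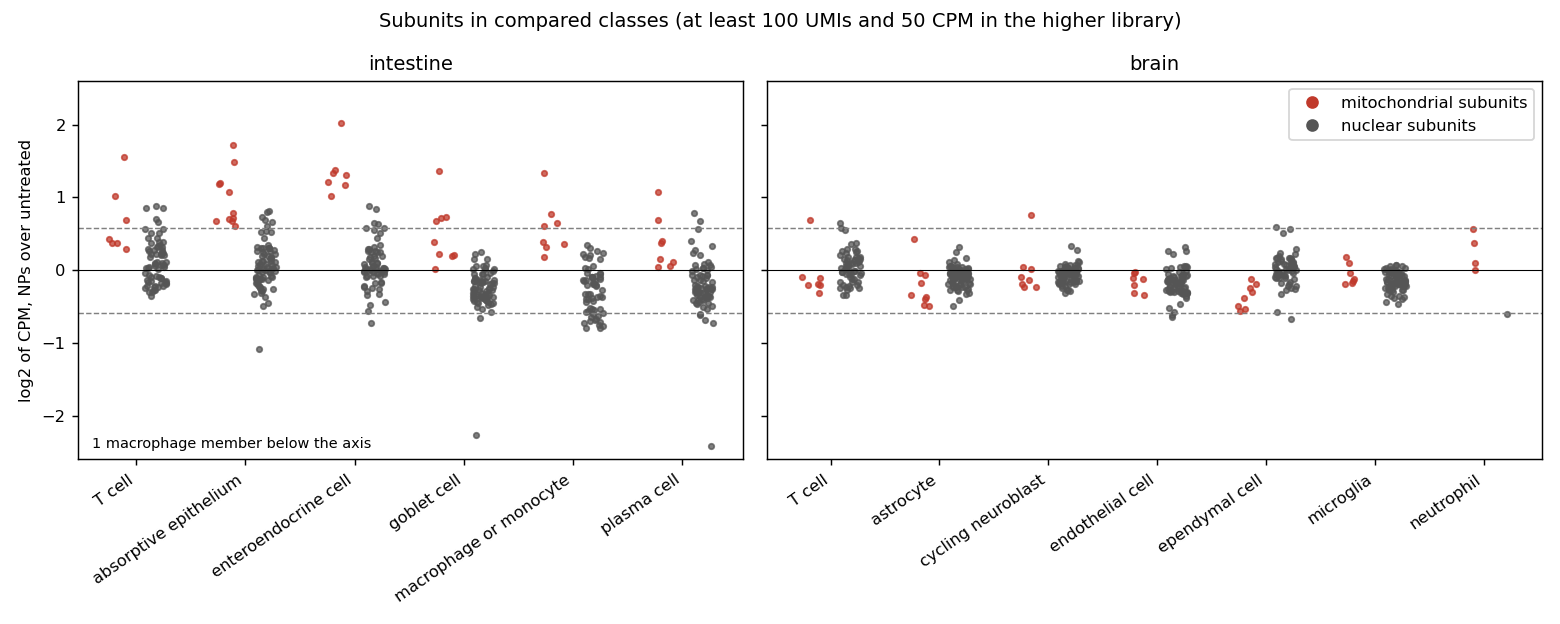
log2 of CPM in NPs over untreated cells (vertical axis) for each tested subunit in each compared class (horizontal axis), with mitochondrial subunits in red and nuclear subunits in grey, and dashed lines at 1.5-fold. In the intestine red points lie at or above 0 in all 6 classes, while in the brain both kinds lie mostly between the dashed lines, with 8 points called in 7 classes.

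In the brain few subunits differed. Of the nuclear subunits 0 were called in astrocytes (75 tested, beside 1.36% of all genes higher and 0.759% lower), cycling neuroblasts (75 tested, 1.15% and 1.41%) and microglia (67 tested, 1.41% and 1.32%). In endothelial cells 0 were higher and 2 lower of 73 (2.62% and 2.7%), namely Uqcr10 with 155 and 236 CPM and Atp5mpl, a small subunit of complex V, with 84.5 and 132 CPM in NPs and untreated cells. In ependymal cells 1 was higher and 1 lower of 60 (2.45% and 8.47%), Cox7a2l with 243 and 161 CPM and Cox6b2 with 36.2 and 57.8 CPM, where Cox6b2 rests on 21 UMIs in 51 NPs cells and had a log2 ratio of 0.29 as a mean over cells. In T cells 1 was higher and 0 lower of 61 (10.3% and 1.64%), Ndufs5 with 64.4 and 40.9 CPM, and in neutrophils 0 were higher and 1 lower of 1 tested (12.9% and 8.98%), Cox8a with 470 and 716 CPM. The median log2 ratio of nuclear subunits was -0.16 in microglia and -0.08 in astrocytes, beside 0.04 and 0.06 for all genes tested.

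Of the mitochondrial subunits only mt-Atp6 was called in the brain, with 59.9 and 37.0 CPM in NPs and untreated T cells and 74.7 and 44.0 CPM in cycling neuroblasts, and this gene shares 99.5% of its windows with a pseudogene. In astrocytes mt-Cytb had 6698 and 8663 CPM, mt-Nd4 3119 and 4350 CPM and mt-Nd1 2258 and 3175 CPM in NPs and untreated cells, all below the fold of a call, and mt-Co1 had 1006 and 1034 CPM. mt-Atp8, which led in the intestine, was at 0.786 to 0.925 of the untreated level in the 5 brain classes where it was tested.

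The genes around the chain were counted by the same rule from lists of related genes. In absorptive cells, where 27.6% of all genes were called higher and 16.6% lower, 3 of 12 tested assembly factors outside the name rule were called higher and 0 lower, among them Surf1, which helps to build complex IV, with 128 and 50.5 CPM in NPs and untreated cells. Of genes for mitochondrial transcription and translation 2 of 4 were higher, Hsd17b10, a part of mitochondrial RNase P, with 130 and 60.7 CPM and the elongation factor Tufm with 120 and 61.7 CPM. Of regulators of biogenesis 3 were higher and 1 lower of 6, with Ppargc1b at 120 and 67.3 CPM and Hif1a, the oxygen-regulated factor, at 43.7 and 244 CPM. Of electron carriers, exchangers and inhibitors 3 were higher and 1 lower of 13, with the complex V inhibitor Atpif1 at 2289 and 1213 CPM, Cyc1, the cytochrome of complex III, at 778 and 461 CPM, and the ADP/ATP exchanger Slc25a5 at 1779 and 3108 CPM. In the citric acid cycle 2 were higher and 1 lower of 14, Idh2 with 142 and 38.8 CPM and citrate synthase, Cs, with 233 and 652 CPM.

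In goblet cells (all genes 18.3% higher and 11.8% lower) 0 of 13 carriers were called higher and 3 lower, Cycs, which is cytochrome c, with 442 and 688 CPM, Slc25a5 with 1014 and 1636 CPM and the outer membrane channel Vdac1 with 210 and 359 CPM in NPs and untreated cells, and in the citric acid cycle 0 were higher and 2 lower of 14. Of the other lists in goblet cells, 1 of 10 assembly factors outside the name rule was higher and 1 of 3 regulators lower. Cyc1 was called higher in T cells (206 and 89.9 CPM), enteroendocrine cells (434 and 171 CPM) and plasma cells (204 and 112 CPM), like its complex III partner Uqcrc1. In macrophages or monocytes (all genes 31.8% and 17.1%) 1 carrier was higher and 3 lower of 11, and Mdh2 of the citric acid cycle had 164 and 438 CPM. In T cells (all genes 14.3% and 8.64%) 3 carriers were higher and 0 lower of 12, 2 of 2 regulators were higher, and 1 of 6 citric acid cycle genes was higher. Lower in T cells were 1 of 8 assembly factors outside the name rule and 1 of 2 genes for mitochondrial transcription and translation. In enteroendocrine cells (all genes 21.2% and 14.8%) 2 of 13 carriers were higher and 1 of 5 assembly factors lower, and in plasma cells (all genes 18.8% and 14.5%) 1 carrier was higher and 2 lower of 12. Plasma cells also had 1 of 5 assembly factors and 1 of 2 transcription and translation genes lower. Of their citric acid cycle genes 1 was higher and 1 lower of 7. In the brain these 5 lists gave 2 calls in 7 classes, Cs higher in T cells with 64.4 and 38.3 CPM (all genes 10.3% higher) and Chchd10 lower in endothelial cells with 28.8 and 50.9 CPM (all genes 2.7% lower). Of the 9 assembly factors in the name rule, 3 could be tested in absorptive cells and 3 in goblet cells. In absorptive cells 1 was called higher and 0 lower, Ndufaf4 with 69.2 and 35.9 CPM (all genes 27.6% and 16.6%). In goblet cells 0 were higher and 1 lower, Ndufaf3 with 42.9 and 64.4 CPM (all genes 18.3% and 11.8%).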

How the data were processed

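Single cells were captured with 10x Genomics 3' v3 chemistry, per the labels' protocols, and the authors deposited a filtered matrix of UMI counts for each of the 4 libraries. The submitters' processing notes name Cell Ranger 5.0.1 and GRCm38. The values were raw counts, not normalized, and because UMIs are read at 3' ends levels were not divided by transcript length.

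From these counts, barcodes with at least 500 UMIs, at least 200 genes and at most 20% mt- UMIs were kept. Doublets were marked with scrublet in scanpy 1.11.5, marking 0.855% and 0.660% of NPs and untreated intestinal cells at a fixed score of 0.25, since its own threshold marked 0% and 0.0354%, and 2.03% and 2.87% of NPs and untreated brain cells. Clusters came from Leiden (leidenalg 0.10.2) at resolution 1 on 2000 variable genes, 30 components and 15 neighbours, per tissue, with the members and all mt- genes left out of the variable genes, with 24 clusters for brain and 26 for intestine. Clusters received names where at least 3 marker genes were at least 2-fold over the median cluster and found in at least 20% of a cluster's cells. These had to be no fewer than the class's other markers. A cluster stayed unnamed where another class had at least as many of its 10 leading genes, or nearly as large a share of its markers raised. Shallow clusters with no marker among those genes stayed unnamed too. The largest unnamed cluster of NPs intestine, 2350 NPs cells, had 6 of 9 goblet markers raised and 6 of absorptive epithelium. UMIs were summed per class and library and given as CPM. Intervals in the tables are exact 95% intervals for counting error, and a count of 0 was set to a floor of 3 counts per library. Classes with at least 50 cells in both libraries were compared. Genes are named with values where they are mitochondrial members, genes of the 8 paralog families, the 10 members most spread over classes in a tissue, up to 3 members called higher and 3 called lower with the largest ratios per class, or up to 3 genes per pathway list and class. Other genes named were chosen after their values were seen. Not every gene that the rule selects is reported here. The members and lists were chosen with earlier results of these data known. The calculations were tested on simulated data. Other limits on mt- UMIs and UMIs, doublet handling, clusterings, scalings, folds and thinning were tried, and the cells of 2000 to 10000 UMIs, the C1q cells and the unshared mt- genes were chosen after seeing the data. Python 3.11.15, numpy 2.4.6, scipy 1.17.1, pandas 2.3.3 and matplotlib 3.10.9 were used.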

Additional observations from a re-analysis of the deposited data

Results flagged for a closer look

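The mt- to nuclear subunit ratio of T cells moved in opposite directions in the 2 tissues, with a log2 ratio of NPs over untreated of 0.39 in the intestine and -0.16 in the brain. Each value rests on 1 library per group and the difference was not tested. The intestinal value turned to 0.430 in NPs and 0.444 in untreated T cells at a limit of 10% mt- UMIs, and to 0.315 and 0.433 as a median over cells, the direction seen in the brain. The nuclear copy of mt-Nd3, Gm28438, is no member and had 448 and 363 CPM in NPs and untreated intestine and 220 and 419 CPM in NPs and untreated brain. Unnamed intestinal cells, left out of the comparisons, had 1.14 and 0.306 mt- subunit UMIs per nuclear subunit UMI in NPs and untreated intestine, over 2463 and 3506 cells.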

How the results depend on the processing

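No paired analysis was possible because each group has 1 library. Over the 80 ratios of members called higher or lower in a compared class, 867 of 1094 recomputed values kept direction and side of 1.5-fold, 215 kept the direction only and 12 turned. The count of nuclear subunits called higher over the intestinal classes, 17, was 11 at a limit of 10% mt- UMIs, 7 at clustering resolution 2, 0 at 2-fold and 4 in cells of 2000 to 10000 UMIs. The count called lower, 22, was 36 at the 10% limit, 63 with no limit, 55 with at least 1000 UMIs, 68 with doublets kept, 36 at resolution 0.5, 64 at resolution 2, 4 with libraries clustered apart, 63 with the members allowed among variable genes, 95 as a mean over cells, 4 at 2-fold, 39 with the median of all genes at 0, 90 in cells of 2000 to 10000 UMIs, and, in macrophages or monocytes, 5 in place of 13 among C1q cells. The mitochondrial count, 31, was 12 at the 10% limit and 17 at 2-fold. The brain count of 8 was 18 as a mean over cells, 0 at 2-fold and 21 with no minimum of UMIs. The log2 mt- to nuclear ratio turned in T cells to -0.044 at the 10% limit and -0.46 as a median over cells, in absorptive cells to -0.12 with no limit, and in macrophages or monocytes to -0.39 as a median over cells. With no limit, absorptive mt-Nd1 had -0.00072, mt-Nd2 -0.30, mt-Cytb -0.067, mt-Co3 -0.095 and mt-Atp6 -0.16. Plasma cell Uqcrc1 had -0.11 with doublets kept and -0.013 at resolution 2. As a mean over cells, enteroendocrine mt-Co1 had -0.014, Uqcrc1 -0.12 and Atp5a1 -0.30, macrophage or monocyte mt-Co1 -0.35, and ependymal Cox6b2 0.29. Thinned to 1000 UMIs, the shares of cells were 80.6% for Ndufa4l2, 57.1% for Cox4i2, 9.92% for Cox8b, 15.3% for Cox6b2, 1.87% and 1.57% for Cox6a2 in NPs and untreated microglia, 0.711% and 0.930% for Cox7b2, and 19.9% and 36.7% for Cox7a1. At the 10% limit, with no limit, with at least 1000 UMIs, with doublets kept, at resolution 2 and in cells of 2000 to 10000 UMIs, 5 intestinal classes had 50 cells in both libraries, and 4 with libraries clustered apart; the causes of these changes were not tested.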
